A study of Mus musculus with 2 samples.

Results

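The 8 genes that encode transcription factors of fat cells, Pparg, Cebpa, Cebpb, Rxra, Klf15, Ebf1, Ebf2 and Prdm16, were followed across the nuclei of the lactating mouse mammary fat pad. They were found by symbol, 8 of the 33943 genes of the table, each with a single row. Nuclei came from the inguinal fat pad of 8 dams on postnatal day 11 of their litters, bred at 8 weeks of age and nursing 4 to 5 pups each. By genotype, 4 dams carried the floxed oxytocin receptor gene (Oxtr flox) and 4 were labelled as lacking Oxtr in adipocytes (KO). The Cre line behind the deletion is not given in the labels, and the hashtags of the first group read WT; they were taken as the flox animals because that is the only other genotype named. Nuclei of all 8 animals were marked with hashtag antibodies, pooled and captured as 1 library of single-nucleus RNA, so each nucleus was given to an animal by its hashtag.

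PPARG is a nuclear receptor that binds DNA as a pair with RXRA and switches on the genes of lipid uptake and storage. CEBPB acts early in fat cell formation and is known to induce PPARG and CEBPA, which then sustain each other in the mature adipocyte. EBF1 and EBF2 are factors of fat precursors and adipocytes, EBF2 and PRDM16 are known for the thermogenic gene programme, and KLF15 is a zinc finger factor of glucose and lipid metabolism. In the lactating gland these genes are set in a tissue in which adipocytes have shrunk between milk-secreting alveoli.

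The matrix held 107910356 UMIs over 21805 barcodes, of which 20854 were kept. Of these, 13057 were given to 1 named animal (1200 to 1991 per animal), 2041 carried more than 1 hashtag and 5479 had no called hashtag. Another 277 carried a hashtag that is labelled as an unknown sample. They shared the library and the clustering and entered no genotype comparison. Although the tissue is labelled as fat, secretory luminal nuclei made up 10889 of the 18813 clustered nuclei and adipocyte nuclei 460, and all 12 adipocyte markers defined the adipocyte cluster. Oxtr gave 1 UMI in the adipocyte nuclei of each flox animal and 3 to 5 in each KO animal. It was thus not lower in the group labelled KO; which part of the gene is deleted is not given, so these UMIs do not test the deletion, and flox and KO name the labels only. Nuclei of some samples were washed more often than those of others, per the labels' protocols, and which ones is not given. The animal is the replicate in each test.

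Pparg separated adipocyte from secretory nuclei more steeply than any other member. In the 369 adipocyte nuclei given to an animal it reached 2172 CPM (UMIs summed over animals and scaled to counts-per-million of all UMIs), with an exact Poisson interval at 95% of 2106 to 2239 that covers counting error only. Vascular endothelial nuclei followed with 524 CPM, pericytes with 279 CPM, an unnamed cluster led by Klra2 and Fyb with 156 CPM and fibroblasts with 111 CPM. The unnamed cluster held 6 macrophage markers (Adgre1, Csf1r, Cd68, C1qa, C1qb and Lyz2), of which 0 were among its leading genes. Secretory luminal nuclei had 3.01 CPM. Over the 8 animals, adipocyte values ran from 1225 to 3153 CPM and endothelial values from 344 to 784 CPM, without overlap. The Klra2 cluster (46.8 to 317 CPM) lay below every endothelial value, and its range took in that of fibroblasts (65.5 to 146 CPM), so the order of these last classes was not separated by the spread between animals. After each nucleus was thinned to 1000 UMIs, 76.4% of adipocyte nuclei (exact interval 71.7% to 80.6%) and 31.7% of endothelial nuclei (25.3% to 38.6%) held a Pparg UMI, against 0.370% of secretory luminal nuclei; unthinned, the shares were 94.9%, 53.7% and 1.65% at median depths of 4311, 5247 and 5258.5 UMIs.

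Pparg is transcribed from several starts, and the 3' UMIs counted here do not tell them apart. RefSeq (GRCm38.p6) lists 3 starts for it, and the 250 bases before the third are shown because they hold both matches that the C/EBP-type letters TTGCNNAA, searched on both strands, gave among the members. The window lies at chr6:115421816-115422065 on the plus strand, and capitals mark the matches.
Pparg (the third start): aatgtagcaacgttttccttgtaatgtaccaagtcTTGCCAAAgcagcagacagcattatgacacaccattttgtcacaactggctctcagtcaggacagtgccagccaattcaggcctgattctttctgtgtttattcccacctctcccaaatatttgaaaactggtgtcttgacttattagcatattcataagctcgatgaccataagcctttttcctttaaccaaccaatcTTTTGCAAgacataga
The match nearer the start covers the bases from 16 to 9 before it, and the other those from 215 to 208 before it. Of all 32851 promoters that RefSeq gave, 9.56% held these letters at least once in the same window and 0.572% at least 2 times. The other 10 starts listed for Pparg, Cebpa, Cebpb, Rxra, Klf15, Ebf1 and Prdm16 held none. Starts were found for 7 of the 8 members, without Ebf2. A match describes letters and was not tested as a binding site.

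Cebpa, the partner of PPARG in the mature fat cell, had its highest level in adipocyte nuclei, 109 CPM from 205 UMIs (interval 94.8 to 125 CPM). It was low elsewhere, with 3.28 CPM from 182 UMIs in secretory luminal nuclei. The next named types were macrophages with 10.8 CPM from 10 UMIs and luminal progenitors with 10.2 CPM from 14 UMIs, and fibroblasts had 2.07 CPM from 7 UMIs. Pericytes gave 0 UMIs, which allows up to 11.97 CPM at 3 UMIs. The adipocyte animals ran from 52.8 to 187 CPM and the fibroblast animals from 0 to 5.52 CPM.

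Cebpb, the early inducer, was spread far more evenly. Adipocyte nuclei had 354 CPM (interval 327 to 382), secretory luminal nuclei 225 CPM, luminal progenitors 214 CPM, myoepithelial nuclei 198 CPM and fibroblasts 144 CPM. T or NK nuclei had 160 CPM. The animals' adipocyte range of 264 to 486 CPM overlapped that of secretory nuclei, 166 to 286 CPM, and lay above that of fibroblasts, 111 to 173 CPM. Milk protein genes, whose RNA outside secretory cells marks free RNA, stood in T or NK nuclei at 92.9% of their secretory level and in fibroblasts at 69.3%. Cebpb stood at 70.8% and 63.7% of its secretory level in the same nuclei. In adipocyte nuclei the milk genes stood at 51.6% of their secretory level and Cebpb at 157%. How much of the Cebpb signal outside adipocytes came from free RNA was not tested.

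Rxra and Klf15 were also detected in every class compared. Rxra, the pairing partner of PPARG, had 20.2 CPM in adipocyte nuclei from 38 UMIs, 26.8 CPM in endothelial nuclei, 14.8 CPM in fibroblasts and 13.03 CPM in secretory nuclei, and the intervals for adipocytes (14.3 to 27.8 CPM) and endothelium (18.4 to 37.9 CPM) overlapped. Klf15 was highest in adipocyte nuclei with 85.3 CPM (interval 72.6 to 99.5), followed by secretory luminal nuclei with 56.5 CPM and endothelial nuclei with 48.6 CPM. Its adipocyte animals (59.5 to 106 CPM) overlapped its secretory animals (44.0 to 72.8 CPM) and lay above its fibroblast animals (17.97 to 44.9 CPM; 29.9 CPM pooled). Relative to secretory nuclei, Klf15 stood at 73.5% in T or NK nuclei and at 52.9% in fibroblasts, and its part from free RNA was likewise not tested.

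Ebf1 and Ebf2 were shared between adipocytes and stroma. Ebf1 had 3258 CPM in fibroblasts, 2842 CPM in adipocyte nuclei, 2289.8 CPM in pericytes and 901 CPM in endothelial nuclei, against 10.9 CPM in secretory luminal nuclei. Fibroblast animals (2839 to 4028 CPM) and adipocyte animals (2024 to 3558 CPM) overlapped. Ebf2 had a narrower distribution, with 526 CPM in fibroblasts, 488 CPM in adipocyte nuclei and 403 CPM in pericytes, but 21.8 CPM in endothelial nuclei and 1.64 CPM in secretory luminal nuclei. Its fibroblast range of 418 to 622 CPM lay inside its adipocyte range of 293 to 735 CPM.

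Fibroblasts fell into a cluster led by Lama2, Itgbl1 and Abca8a and a cluster led by Fndc1, Gfpt2 and Pi16, the latter a marker of adventitial progenitors. Ebf1 had 2727 CPM in the first and 4866 CPM in the second, and Ebf2 396 CPM and 921 CPM. Both genes were higher in the Pi16 cluster in 8 of 8 animals. Pparg ran the other way, with 129 CPM in the first cluster and 57.2 CPM in the second. Ebf1, Ebf2 and Pparg were among the 2000 variable genes that made the clusters, so these are descriptions and no test was made.

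Outside the stroma Ebf1 is a B cell factor and is itself a B cell marker. At a finer clustering 42 B nuclei stood apart, of any animal or none, and held 2188 Ebf1 CPM from 352 UMIs, with 2 UMIs of Ebf2 and 1 of Pparg. Ebf1 was itself among the 7 markers that named this cluster. In the clustering used elsewhere no B cluster was named, and the plasma cell cluster had 347 Ebf1 CPM. Of the 238 nuclei of that plasma cluster, 201 were still named plasma at the finer clustering. The part of the nuclei that left in its Ebf1 level was not tested.

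Prdm16, the zinc finger coregulator of beige and brown fat cells, had 106 CPM in adipocyte nuclei from 199 UMIs, with 64.3 to 149 CPM over animals. Pericytes had 71.8 CPM from 18 UMIs and endothelial nuclei 56.2 CPM from 67 UMIs, while fibroblasts had 7.99 CPM and secretory nuclei 4.05 CPM. The pericyte interval of 42.6 to 113 CPM overlapped the adipocyte interval of 91.8 to 122 CPM. In endothelium the flox animals had 218, 23.7, 41.8 and 69.4 CPM and the KO animals 13.2, 40.8, 68.0 and 48.5 CPM. Flox animal 1 was thus above all others, and the endothelial animals took in the whole adipocyte range.

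**Figure D1:**
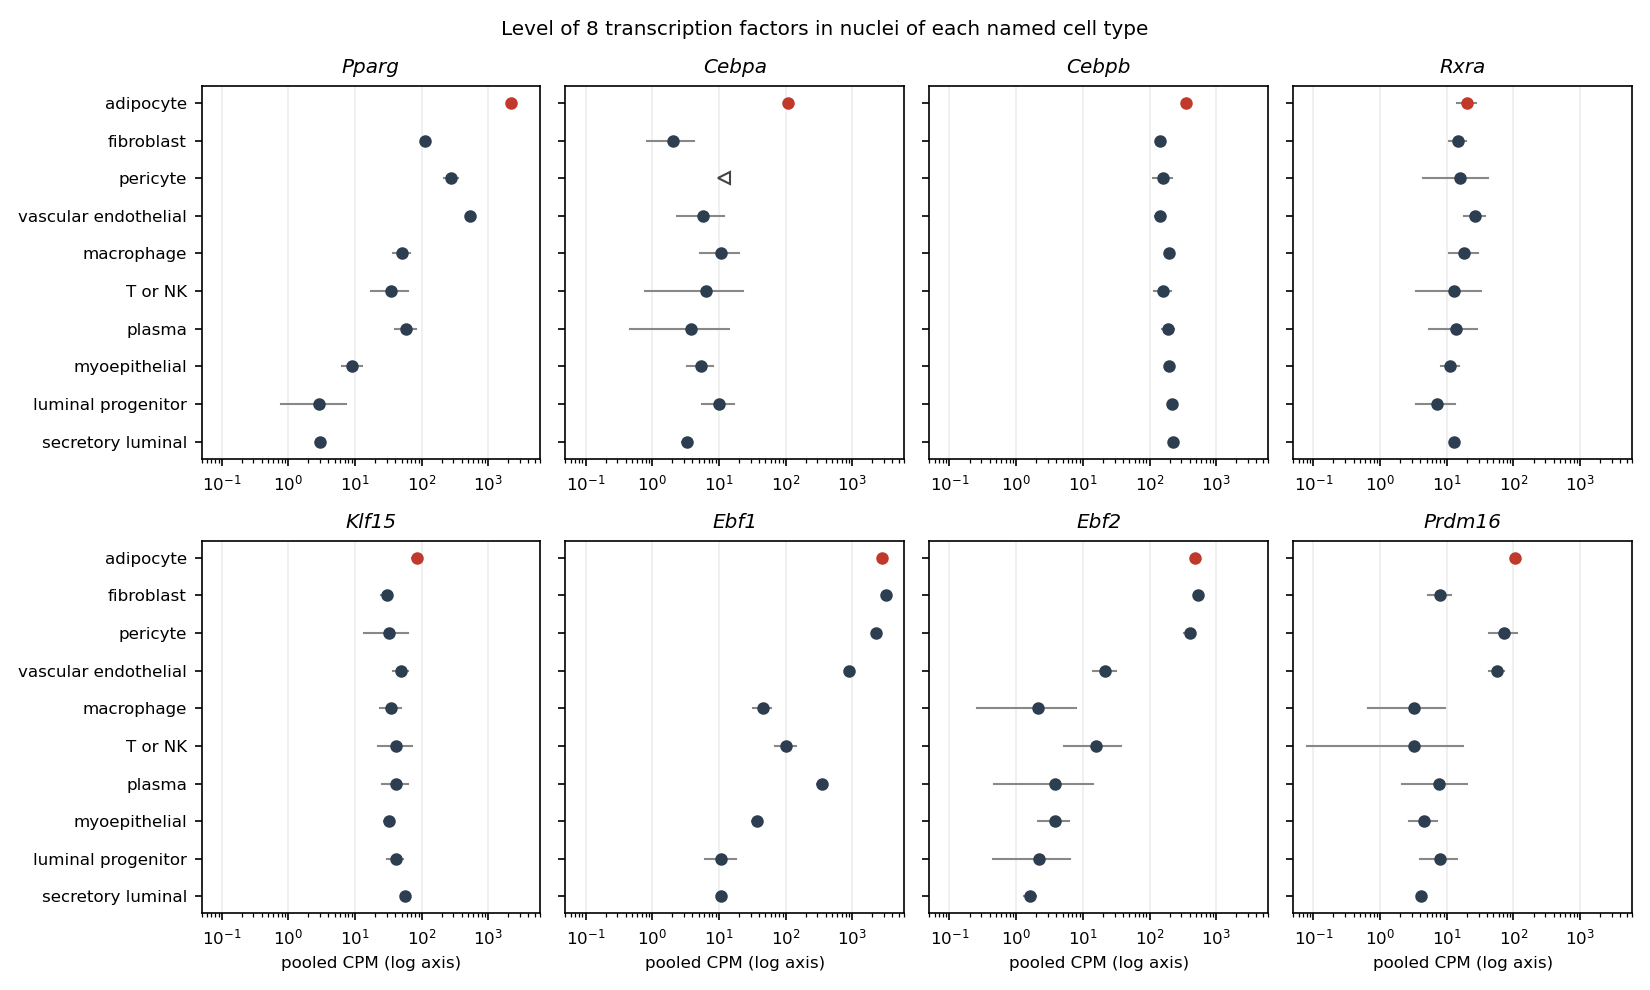
Pooled level of each member (CPM, log axis) in 10 named cell types; points are sums over animals, lines exact Poisson intervals at 95%, red marks adipocytes, and the open triangle marks 0 UMIs at the level of 3 UMIs. Pparg and Cebpa peak in adipocyte nuclei. Prdm16 is highest there too, but its interval overlaps that of pericytes. Ebf1 and Ebf2 are shared with fibroblasts and pericytes, and Cebpb, Rxra and Klf15 vary less between types. Cebpb and Klf15 are highest in adipocytes (354 and 85.3 CPM, against 144 and 29.9 CPM in fibroblasts).

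The members' gradients were compared with those of 10 adipocyte genes chosen as a measure of free adipocyte RNA. In endothelial nuclei those genes stood at a median of 2.73% of their adipocyte level (0.763% to 12.5%), while Pparg stood at 24.1%, Ebf1 at 31.7% and Prdm16 at 53.0%. All 3 lay above the range of the free RNA genes, while endothelial Ebf2, at 4.47%, and Cebpa, at 5.37%, lay inside it. The upper end of that range came from Lep, with 5 UMIs. Such a range covers RNA from adipocytes only. Ebf1 and Ebf2 stood in fibroblasts at 115% and 108% of their adipocyte level, and free RNA from fibroblasts was not tested. Pericytes had a median of 3.15% and a highest value of 16.7%, a range that contains their Pparg value of 12.9% but not those of Prdm16 (67.7%) and Ebf2 (82.6%). In fibroblasts the median was 0.670% (0.120% to 2.78%), with Pparg at 5.12% and Prdm16 at 7.54% above that range and Cebpa at 1.90% inside it. The Klra2 cluster had a median of 2.87% and a highest value of 9.82%, which came from Lep with 5 UMIs. Its Pparg (7.17%) and Ebf1 (9.03%) lay between these values, and their part from free RNA was not tested.

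Several members were found together mainly in adipocyte nuclei. After thinning to 1000 UMIs, 52.4% of adipocyte nuclei held at least 3 of the 8 members and 16.8% at least 4. Pericytes followed with 17.6% holding at least 3, fibroblasts with 8.92%, endothelial nuclei with 5.03% and secretory luminal nuclei with 0.103%. At least 2 members were held by 85.9% of adipocyte nuclei, 50.1% of fibroblasts and 50.0% of the 34 pericytes. The share was 28.1% in endothelial and 2.12% in secretory luminal nuclei.

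The nuclei without a called hashtag, which enter none of the levels above except that of the B nuclei, gave other levels for the same types. Endothelial nuclei without a hashtag had 2044 Pparg CPM over 427 nuclei, against 524 CPM over the 201 given to an animal, and close to the adipocyte value of 2172 CPM. Their median depth was 1267 UMIs against 5247, and milk protein genes took 25.5% of their UMIs against 15.7%. Ebf1 stood at 2020 against 901 CPM in endothelium, at 5900.2 against 2289.8 CPM in pericytes and at 5418 against 3258 CPM in fibroblasts. Ebf2 stood at 974 against 526 CPM in fibroblasts but at 277 against 488 CPM in adipocyte nuclei. Cebpb was lower without a hashtag in fibroblasts (91.7 against 144 CPM) and endothelium (98.7 against 142 CPM). In adipocyte nuclei Pparg stood at 2587 against 2172 CPM, a smaller move than in endothelium. Which property of these nuclei goes with the difference was not tested.

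**Figure D2:**
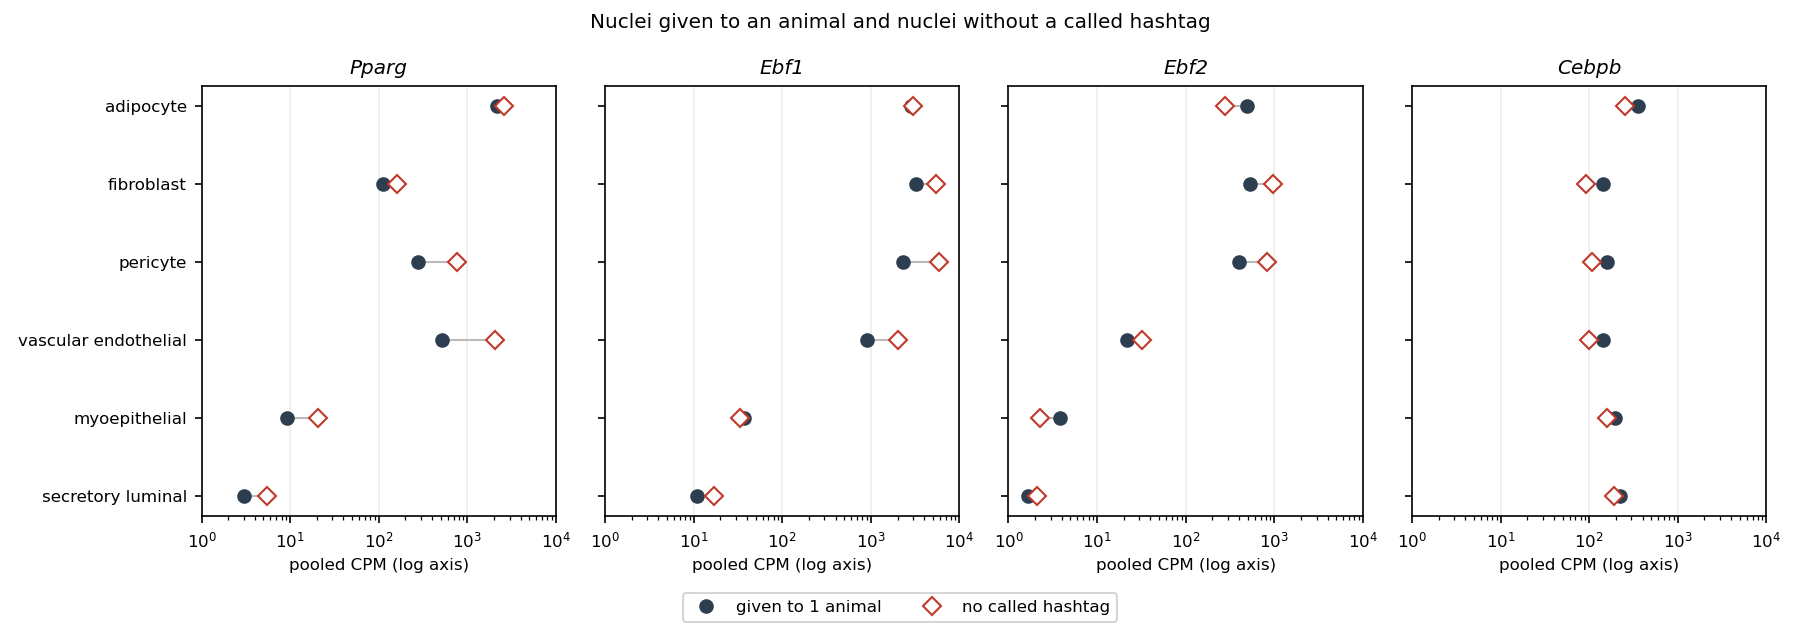
Pooled level of Pparg, Ebf1, Ebf2 and Cebpb (CPM, log axis) in 6 cell types, for nuclei given to an animal (filled circles) and nuclei without a called hashtag (open diamonds). Endothelial Pparg stands at 524 CPM in the first and 2044 CPM in the second, while adipocyte Pparg stands at 2172 and 2587 CPM.

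The genes whose pattern was most like each member were sought among 12283 genes with at least 200 UMIs, by Pearson's r of log2(CPM + 1) over 11 named cell types. These types share a library and free RNA, and r is given as a description. For Pparg they were Pphln1 (0.93), Fabp4 (0.93), a fatty acid carrier of adipocytes and capillary endothelium, and Gm44079 (0.93), which lies inside Pparg on the opposite strand, so that reads of the pair cannot be told apart where counting ignores strand. Cebpa was most like Abhd15 (0.94), Nudt7 (0.92) and Prpf38b (0.92), and Cebpb like Pdk2 (0.96), Zfp395 (0.93) and Net1 (0.91). Klf15 was most like Prdm9 (0.96), Nrip1 (0.96) and Fam13a (0.94). Ebf1 was most like Dlc1 (0.94), Rnf144a (0.93) and Cped1 (0.93), and Ebf2 like Pde1a (0.97), Hoxc6 (0.96) and Sox5os4 (0.96). Prdm16 was most like Fzd4 (0.91), Acer2 (0.89) and Art3 (0.89), and Rxra like Apip (0.90), Rasgrf2 (0.86) and Hba-a1 (0.86). Genes on the opposite strand also overlap Cebpa, Cebpb, Ebf1, Ebf2 and Prdm16 in the GENCODE M21 annotation, and no source used here says whether counting used strand.

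The question behind the genotype comparison was whether adipocyte nuclei differ between the groups. None of the 7 members that passed the filter on low counts did by edgeR's quasi-likelihood test (Benjamini-Hochberg threshold 0.05), and nor did any of the 3883 genes tested: 0% were called, 298 had an unadjusted p under 0.05, and the 2 genes that DESeq2 called were no members. The comparison rests on 31 to 71 adipocyte nuclei per animal. Rxra, with 38 UMIs, did not pass the filter; its flox animals had 17.6, 0, 19.8 and 5.46 CPM and its KO animals 14.3, 33.4, 22.3 and 33.3 CPM.

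Ebf2 was the member whose groups separated. In adipocyte nuclei the flox animals had 365, 293, 471 and 295 CPM and the animals labelled KO 525, 506, 735 and 591 CPM. Every KO value lay above every flox value, as it did for 2.37% of the 3883 genes tested, and no member had every KO value below (1.55% of genes did). Flox animals averaged 356 ± 83.7 CPM and KO animals 589 ± 104 CPM (SD, n = 4 each), or 0.71 as log2 fold change (SE 0.21). Its edgeR adjusted p was 0.348 and ran from 0.0540 to 0.748 over 16 alternative settings, with the change positive in each.

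Pparg had 3016, 3141, 3153 and 1305 CPM in flox animals 1 to 4 and 2034, 2213, 1225 and 1545 CPM in KO animals 1 to 4. Flox animals 1 to 3 lay above every KO animal and flox animal 4 among them. Flox animals averaged 2654 ± 901 CPM and KO animals 1754 ± 452 CPM (SD, n = 4 each), and edgeR gave -0.61 on the log2 scale (SE 0.25, adjusted p 0.581). Without flox animal 4 the log2 fold change was -0.83 and the edgeR adjusted p 0.0369, the only call of a member among the settings tried, and 44 genes of 4157 were then called. Flox animal 4 was the lowest flox animal for Pparg in fibroblasts as well, with 70.7 CPM against 123, 133 and 145 CPM, and its endothelial value of 470.3 CPM lay among the others.

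Cebpb had 479, 486, 347 and 349 CPM in the flox animals and 286, 264, 307 and 412 CPM in the KO animals, so that 3 of 4 KO animals lay below all flox animals. The log2 fold change was -0.40 (SE 0.21, edgeR adjusted p 0.680). Ebf1 had 2594, 3558, 3302 and 2861 CPM in flox and 2341, 3345, 2847 and 2024 CPM in KO animals, a log2 fold change of -0.24 (SE 0.17, edgeR adjusted p 0.761). These groups overlapped, as did those of the remaining members.

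Cebpa had 106, 187, 89.2 and 109 CPM in flox and 132, 52.8, 89.1 and 154 CPM in KO animals (log2 fold change -0.21, SE 0.33). Klf15 had 70.3, 106, 59.5 and 81.9 CPM in flox and 100.1, 83.4, 89.1 and 91.6 CPM in KO animals (log2 fold change 0.20, SE 0.25). For Prdm16, the partner of EBF2 in the thermogenic programme, the values were 106, 125, 149 and 92.8 CPM in flox and 64.3, 83.4, 147 and 112 CPM in KO animals (log2 fold change -0.25, SE 0.27). With edgeR the adjusted p of these members was 0.920, 0.881 and 0.855, and the sign for Cebpa turned when flox animal 2 (0.05) or KO animal 2 (0.06) was left out.

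**Figure D3:**
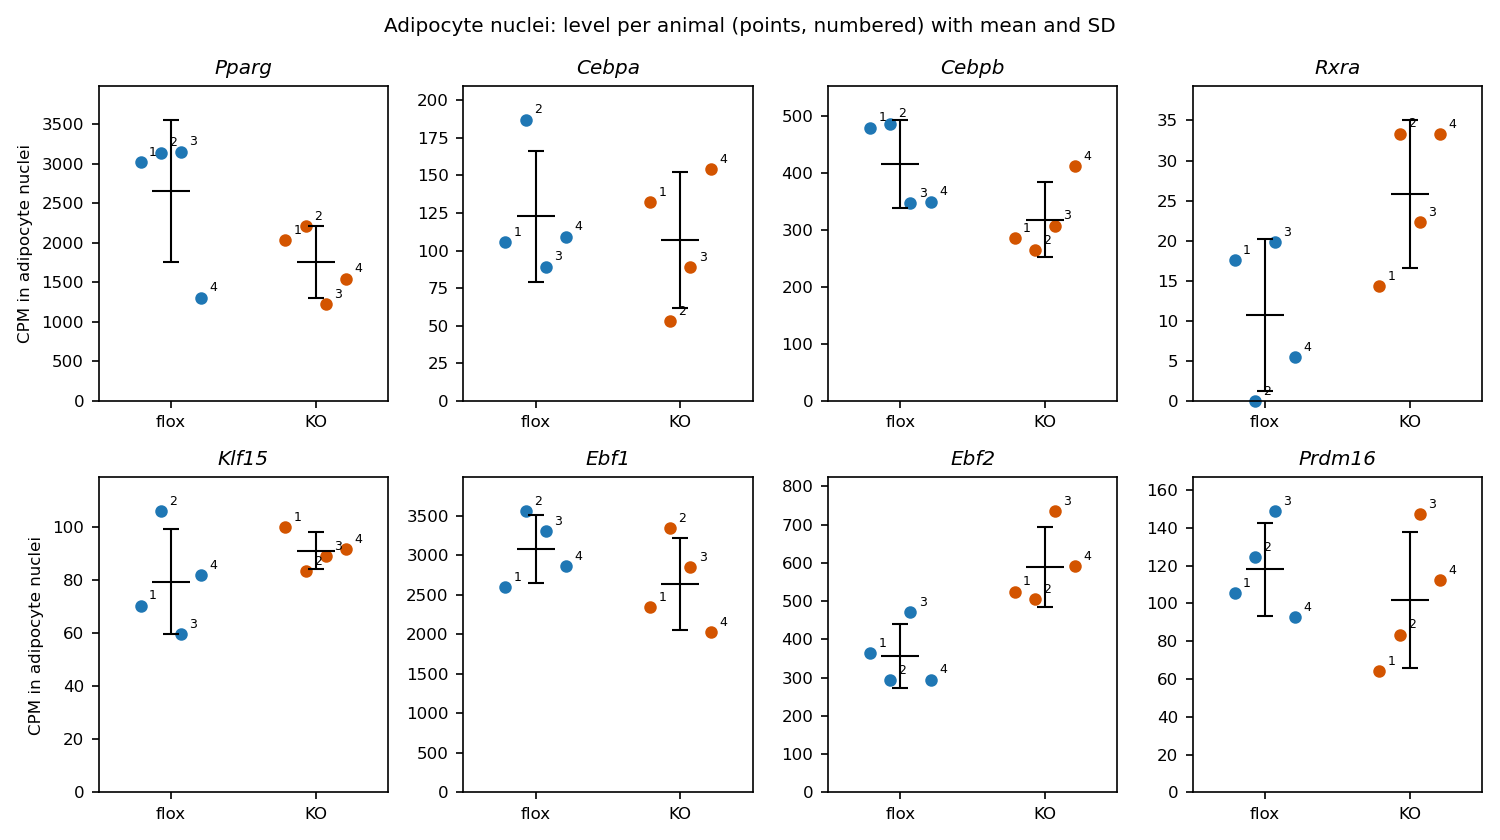
Level of each member in adipocyte nuclei (CPM, axis from 0) for the 4 flox and 4 KO animals, numbered by hashtag, with the mean and SD in black. The Ebf2 groups do not overlap, and flox animal 4 has 1305 Pparg CPM where the other flox animals have 3016 to 3153.

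Adipocyte nuclei made up 2.36% ± 0.399 of a flox animal's nuclei and 3.39% ± 0.676 of a KO animal's (SD, n = 4 each), a difference with a two-sided exact permutation p of 0.0571, where the smallest possible with 4 against 4 is 0.0286. Of the UMIs in adipocyte nuclei, milk protein genes made up 7.56% ± 0.663 in flox and 8.13% ± 0.551 in KO animals (exact permutation p 0.229). The part of either in the members' values was not tested.

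In the other 7 classes compared, 0 of 24 tests of a member passed edgeR's threshold, and in none was a member called by DESeq2. The background was as low: 0% of genes were called in fibroblasts, secretory luminal nuclei, luminal progenitors, macrophages and the Klra2 cluster, 0.0148% in myoepithelial and 0.0417% in endothelial nuclei. Between 92 and 1094 genes per class had an unadjusted p under 0.05, and over the 7 classes 29 genes passed with DESeq2. Groups stood apart for 1 of 5 members tested in fibroblasts, 1 of 3 in myoepithelial nuclei, 1 of 1 in luminal progenitors, 1 of 3 in endothelium and 1 of 8 in secretory luminal nuclei, described next. In macrophages (1 member tested; 2.56% of genes with every KO value above and 1.78% below) and the Klra2 cluster (3 tested; 1.44% each way) none did. No member lay below in each KO animal in luminal progenitors (1.31% of genes did), myoepithelium (1.7%), secretory nuclei (1.82%) or endothelium (0.876%), and none above in fibroblasts (1.85%).

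In plain CPM the Cebpb animals stood apart in 4 of these classes, lower in KO in fibroblasts and higher in the other 3. No difference between classes passed the test given after the values. In fibroblasts the flox animals had 153, 165, 142 and 173 CPM and the KO animals 141, 111, 134 and 136 CPM. Every KO value lay below every flox value, by 141 against 142 CPM at the nearest pair, a pattern held by 1.22% of the 6470 genes tested there (log2 fold change -0.31, SE 0.16, edgeR adjusted p 0.974). In myoepithelial nuclei the order was the opposite, with 175, 177, 122 and 182 CPM in flox and 204, 242, 257 and 219 CPM in KO animals. There 2.42% of 6747 genes had every KO value above every flox value, and the Cebpb log2 fold change was 0.46 (SE 0.15, edgeR adjusted p 0.432).

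Luminal progenitors and endothelium gave the same order as myoepithelium. Luminal progenitors had 199, 196, 191 and 150.3 Cebpb CPM in flox and 223, 221, 222 and 262 CPM in KO animals, where 1.76% of genes had every KO value higher. Endothelial nuclei had 59.5, 130.3, 109.8 and 123 CPM in flox and 167, 175, 159 and 169.7 CPM in KO animals, where 1.63% did. In secretory luminal nuclei flox animals had 166, 217, 182 and 257 CPM and KO animals 222, 265, 286 and 273 CPM, so 3 of 4 KO animals lay above all flox animals. The log2 fold changes were 0.33, 0.62 and 0.31, with edgeR adjusted p of 0.955, 0.991 and 0.578.

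The difference between types was itself tested, in a choice made after these values were seen. Fibroblasts and adipocytes were set against the other classes in which the mean Cebpb level was higher in KO. The genotype effect on Cebpb in fibroblasts minus that in myoepithelial nuclei was -0.74 on the log2 scale (SE 0.20, unadjusted p 0.000849, edgeR adjusted p 0.276). Against luminal progenitors it was -0.64, against endothelium -0.94 and against secretory nuclei -0.60, with edgeR adjusted p of 0.893, 0.997 and 0.676. Adipocyte nuclei minus myoepithelial nuclei gave -0.88 (edgeR adjusted p 0.279). Against luminal progenitors the adipocyte difference was -0.71, against endothelium -1.06 and against secretory nuclei -0.73, with edgeR adjusted p of 0.603, 0.498 and 0.426. None passed, and these contrasts share the fibroblast or adipocyte sums. Milk protein genes took 11.5% ± 0.848 of myoepithelial UMIs in flox and 11.6% ± 1.58 in KO animals (SD, n = 4 each), and 10.5% ± 0.205 and 10.6% ± 1.85 in fibroblasts; the part of free RNA in the Cebpb values was not tested.

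Klf15 had every KO animal above every flox animal in secretory luminal nuclei. The flox animals had 50.3, 44.0, 52.1 and 57.7 CPM and the KO animals 64.0, 60.8, 72.8 and 60.4 CPM, where 1.78% of 12857 genes showed this order (log2 fold change 0.30, SE 0.09, edgeR adjusted p 0.541). In myoepithelial nuclei its log2 fold change was 0.25 (SE 0.27), and in fibroblasts 0.45 (SE 0.30).

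**Figure D4:**
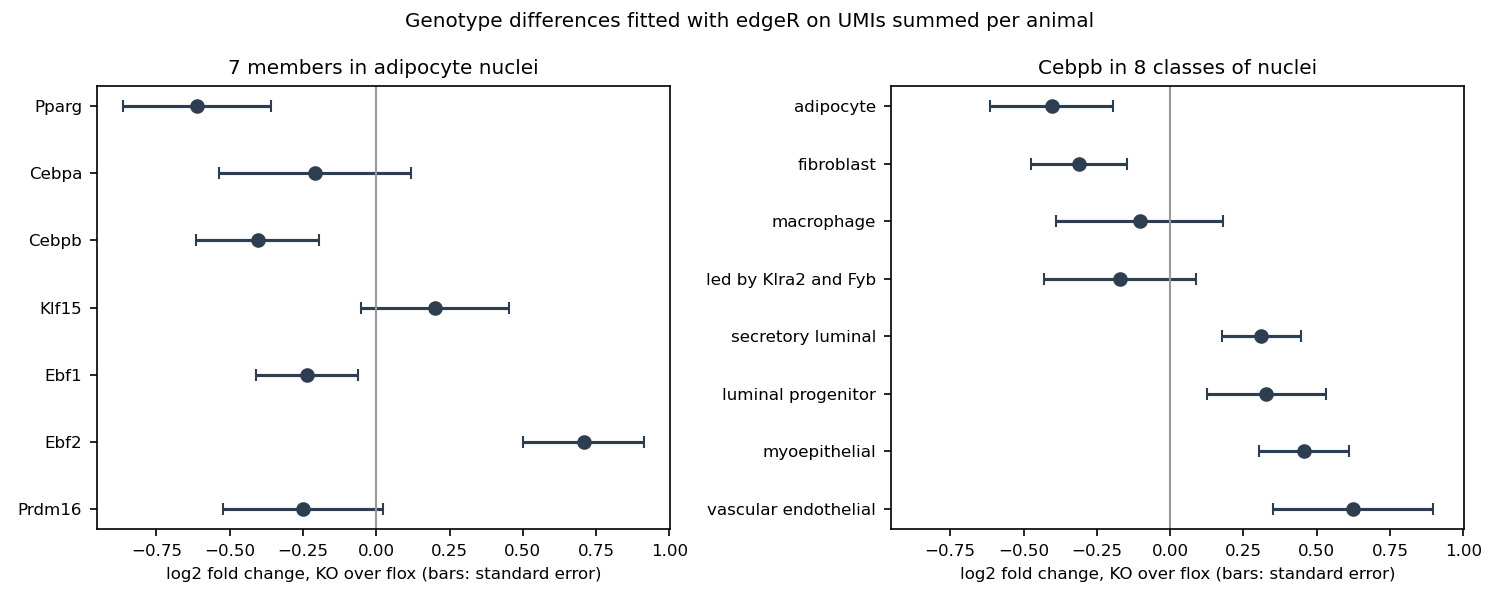
Log2 fold change of KO over flox with its standard error (edgeR on UMIs summed per animal), for the 7 members tested in adipocyte nuclei on the left and for Cebpb in 8 classes of nuclei on the right. Ebf2 stands at 0.71 and Pparg at -0.61; Cebpb lies below 0 in adipocytes, fibroblasts, macrophages and the Klra2 cluster and above 0 in epithelium and endothelium, and none passed the adjusted threshold.

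In fibroblasts, whose Ebf2 level overlapped that of adipocytes, the Ebf2 groups overlapped. Their flox animals had 622, 442, 551 and 517 CPM and their KO animals 418, 509, 575 and 546 CPM (log2 fold change -0.10, SE 0.15). The genotype effect on Ebf2 in adipocyte nuclei minus that in fibroblasts was 0.80 on the log2 scale (SE 0.24, unadjusted p 0.00248), with an edgeR adjusted p of 0.439 over 3552 genes, of which 0% were called. Against secretory luminal nuclei, where Ebf2 had 1.64 CPM and a log2 fold change of 0.41 (SE 0.30) in the same direction as in adipocytes, the difference was 0.26 (SE 0.32, edgeR adjusted p 0.921). For Pparg the contrast of adipocytes and fibroblasts was -0.42 (SE 0.26, edgeR adjusted p 0.860) and its fibroblast log2 fold change -0.13. Endothelial Pparg averaged 496 ± 199 CPM in flox and 527 ± 95.9 CPM in KO animals (SD, n = 4 each; log2 fold change 0.07), and endothelial Ebf1 865 ± 124 and 969 ± 120 CPM (0.13).

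Genes around the members were taken from lists by function, and none passed the threshold in adipocyte nuclei. The median log2 fold change of all genes there was 0.00 and 50.4% were above 0. Of the 14 tested partners and coregulators of PPARG, 9 were higher and 5 lower in KO (median 0.05). Ppargc1a, the coactivator of mitochondrial genes, had the smallest p among the higher, at 161 ± 84.1 CPM in flox and 448 ± 323 CPM in KO (log2 fold change 1.45, edgeR adjusted p 0.398). Its KO animals, from 97.3 to 854 CPM, spanned its flox animals, from 101 to 284 CPM, and Ppara followed at 0.76. Ppard, at -0.51, and Ncoa2, at -0.20, had the smallest p among the lower.

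Among 22 other transcription factors of fat cell formation, 10 were higher and 12 lower (median -0.08). Srebf1, the factor of lipid synthesis genes, had 183 ± 48.3 CPM in flox and 88.4 ± 26.3 CPM in KO animals (SD, n = 4 each; log2 fold change -1.04, edgeR adjusted p 0.230). Its flox animals, from 137 CPM, lay above its KO animals, up to 128 CPM. Zfp521, an antagonist of EBF factors, stood at -0.65, and Zbtb16 at 0.67 and Cebpd at 0.73 had the smallest p among the higher.

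Of 33 tested PPARG target genes, 22 were lower and 11 higher in KO, with a median of -0.12. The lower genes with the smallest p were Agpat2, with 274 ± 89.2 CPM in flox and 135 ± 30.3 CPM in KO, and Gpam, with 630.0 ± 204 and 330.1 ± 41.6 CPM, both enzymes of glycerolipid assembly (log2 fold changes -1.04 and -0.94, edgeR adjusted p 0.230 each). Lpin1, a phosphatidate phosphatase, had the smallest p among the higher, at 0.69. Only 5 of 24 thermogenic genes could be tested, 4 higher and 1 lower, with Cidea at 0.31 and the adrenergic receptor gene Adrb3 at -0.40. Stromal progenitor genes gave 3 tests of 16, with Cd55 at 0.21, F3 at -0.20 and Gsn at -0.08. The 8 milk protein genes split 7 to 1 with a median of 0.09, led by Glycam1 at 0.29 and Csn1s1 at 0.15, with Lalba at -0.03. Without flox animal 4, 44 of all 4157 genes tested passed, 20 higher and 24 lower in KO. Among them were 3 of 33 PPARG target genes, 1 of 23 other transcription factors and Pparg itself, each lower in KO. Of those 33 target genes, 21 were then lower and 12 higher. Their median log2 fold change was -0.06, nearer to that of all genes (0.01) than the -0.12 found with every animal.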

How the data were processed

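Nuclear RNA of the pooled fat pads was measured in 1 library, with a second library of hashtag antibodies. The deposited values are raw UMI counts per gene or hashtag and barcode; the submitters' processing notes name fastp, Cell Ranger 7.2.0 and GRCm39 without their roles. Barcodes with at least 500 UMIs, 300 genes and at most 5% mitochondrial UMIs were kept. Each was given to an animal with HTODemux (Seurat 5.3.0, quantile 0.99) from 9 of 10 hashtags, since 1 had almost no UMIs. Hashtag doublets were removed; Scrublet marked 1 barcode on its own, so it served only in an alternative. Nuclei were clustered with scanpy 1.11.5 (Leiden, resolution 0.5, 2000 variable genes), and clusters were named from at least 3 detected markers. A name also needed 1 marker among the 10 leading genes or 3 times as many markers as the next type. Secretory luminal clusters were named from at least 3 markers raised over the named types other than luminal progenitors.

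UMIs were summed per animal and class for classes in which 3 or more animals per genotype had 10 or more nuclei. Sums were tested in edgeR 4.0.16 (quasi-likelihood, TMM, filterByExpr), with Benjamini-Hochberg adjustment over all genes and a threshold of 0.05. Fold changes are KO over flox. Levels are CPM of summed UMIs; intervals are at 95%, and 0 UMIs is read against 3 UMIs. Intervals cover counting error only. Depth was 4212 UMIs at the median nucleus. All 8 members were named, with the 2 genes of smallest p in each direction from each list and the 3 genes most like each member. One gene that this rule names is not reported here. The members and lists were chosen with earlier results of these data known. Scripts were tested on simulated data. DESeq2 1.42.0, no filter, other hashtag and doublet rules, other clusterings, a replicate block and leaving out each animal were tried as alternatives.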

Additional observations from a re-analysis of the deposited data

Results flagged for a closer look

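Among 69 groups of 4 animals, 5 held an animal that stood far from the other 3 by Dixon's ratio at its 95% critical value. Chance flags about 1 in 20 such groups. The groups covered every member in adipocyte nuclei and, in the other classes, the members that passed the filter on low counts. They also covered the share of adipocyte nuclei, their median depth and their share of milk protein UMIs. Pparg in adipocyte nuclei of flox animal 4 was 1305 CPM, against 3016 to 3153 CPM in the other flox animals. Cebpb in luminal progenitors was 150.3 CPM in flox animal 4, against 191 to 199 CPM, and 262 CPM in KO animal 4, against 221 to 223 CPM. Cebpb in myoepithelial nuclei was 122 CPM in flox animal 3, against 175 to 182 CPM. Cebpa in secretory luminal nuclei was 4.87 CPM in flox animal 4, against 2.98 to 3.23 CPM in the other flox animals.

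In plain CPM, Cebpb lay below every flox animal in each KO animal in fibroblasts, and above every flox animal in each KO animal in 3 other classes. The nearest fibroblast pair changed order when divided by its TMM factors. The difference of the genotype effects on the log2 scale was -0.64 for fibroblasts minus luminal progenitors, -0.74 for fibroblasts minus myoepithelial nuclei and -0.94 for fibroblasts minus endothelium. None of the 3 tests of the difference passed edgeR's adjusted threshold.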

How the results depend on the processing

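In adipocyte nuclei, edgeR's 0 called genes became 2 with DESeq2, 88 with no filter on low counts, 9 with the replicate block and 0 to 44 when 1 animal was left out, with 44 without flox animal 4. Called members then numbered 0 to 1, the 1 being Pparg (-0.83, adjusted p 0.0369). In the other classes, 2 calls became 29 with DESeq2, 143 with no filter, 38 with the replicate block, 1 without the highest 5% of Scrublet scores, 0 with hashtags normalised within barcodes, 0 with the ratio rule (fitted only in myoepithelial and secretory luminal nuclei) and 1 to 43 with 1 animal left out (43 without flox animal 4). For adipocytes against fibroblasts, 0 became 18 with no filter and 0 to 5 with 1 animal left out (5 without flox animal 4).

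Of 112 alternative values for the 7 members in adipocytes, 109 kept direction and side of the threshold, as did 213 of 225 for the 14 differences given in other classes. With 1 animal left out, values ran from -0.44 to 0.057 for Cebpa in adipocytes, turning without flox animal 2 (0.048) or KO animal 2 (0.057), from -0.10 to 0.080 for Ebf1 in fibroblasts, from -0.32 to 0.050 for Pparg in fibroblasts, turning without KO animal 3, from -0.045 to 0.36 for endothelial Pparg, and from -0.24 to 0.00012 for the adipocyte minus fibroblast difference of Cebpb, turning without flox animal 1. The sign of Ebf1 in fibroblasts turned without flox animal 2 (-0.035), flox animal 4 (-0.0055) or KO animal 4 (-0.10), with the replicate block (-0.0010) and without the highest 5% of Scrublet scores (-0.027), and that of endothelial Ebf1 without those scores (-0.099). Endothelial Pparg turned without flox animal 2 (-0.045), flox animal 3 (-0.042) or KO animal 2 (-0.016). With hashtags normalised within barcodes Ebf2 in fibroblasts was 0.046 and Pparg 0.24. The Cebpb difference was 0.058 without the highest Scrublet scores. The cause of these turns was not tested.

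Hashtag numbers are shared between genotypes. Deviations of animals 1 to 4 of the same number correlated with r of 0.040, 0.15, 0.056 and 0.26 over 3883 genes in adipocytes and 0.23, -0.023, 0.24 and 0.14 over 12857 genes in secretory luminal nuclei. Animals of unlike number gave r from -0.33 to 0.19 in adipocytes and from -0.33 to 0.38 in secretory luminal nuclei. Not every pair of the same number was over 0.1, and the main fits did not take the numbers as pairs. These values do not settle whether the numbers mark pairs, and a shared preparation was not tested. In adipocytes, 412 genes had an unadjusted edgeR p under 0.05 with the replicate block, against 298 without it. Most of the 38 calls with the replicate block were in myoepithelial nuclei (34). Under it Ebf2 in adipocytes was 0.72 with an edgeR adjusted p of 0.0828. HTODemux with every hashtag could not be fitted, and the ratio rule left too few nuclei for a test in adipocytes and 5 other classes. The 31 to 71 adipocyte nuclei per animal limit Rxra, with 38 UMIs, to a description.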
